A study of Homo sapiens with 4 samples.

Results

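The RNAs described here were 10 RNAs known as long noncoding RNAs, which are held to work without being translated. They were the nuclear RNAs MALAT1 and NEAT1, the RNA TUG1, and the snoRNA host genes GAS5, SNHG1, SNHG5, SNHG6, SNHG7, SNHG8 and SNHG12. RefSeq classes TUG1 as protein-coding and the other listed genes as long noncoding. They were listed by symbol, and a row of the authors' deposited table of comparisons was assigned to an RNA when its RefSeq accession, without version, belonged to that symbol. Of the 10 RNAs, 7 had a row, through 8 records, among 19468 genes that could be named in the table. GAS5, NEAT1 and TUG1 had no row. Of the 7 RNAs with a row, 6 were snoRNA host genes and 1, MALAT1, was not.

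A snoRNA host gene carries small nucleolar RNAs (snoRNAs) in its introns. Once the transcript is spliced, the introns give rise to the snoRNAs, which guide ribose methylation (C/D box snoRNAs) or pseudouridylation (H/ACA box snoRNAs) of other RNAs, chiefly ribosomal RNA. The spliced exons of several hosts, GAS5 and SNHG1 among them, are known to be short-lived in the cytoplasm because nonsense-mediated decay removes them. MALAT1 gathers in nuclear speckles next to sites of splicing, NEAT1 is the scaffold of paraspeckles, and both are known for their abundance in cultured cancer cells.

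The study asked which RNAs depend on TARBP2, a protein that binds double-stranded RNA and is known as a partner of Dicer. MDA-LM2 cells, derived from MDA-MB-231 human breast cancer cells by selection for spread to the lung, were transfected with Lipofectamine. The knockdown group held 2 arrays, siRNA 1 and siRNA 2, each from cells given a different siRNA against TARBP2, and the control group held 2 arrays from cells given a control siRNA. All 4 samples were of the same cell line, were taken at 48 hours, and were hybridised as biotin-labelled total RNA to Illumina BeadChips. The series' design text calls the comparison cells mock-transfected, whereas the sample labels name a control siRNA. The labels do not say whether the 2 control arrays came from separate cultures, and the spread between them may be technical. The spread between the knockdown arrays includes the difference between the siRNAs.

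Each array measured 47321 probes, of which between 19411 and 21639 were detected. The siRNA 1 array stood farther from the controls than the siRNA 2 array: over the 21075 probes detected on at least 2 arrays, the SD of the log2 difference from the mean control was 0.792 for siRNA 1 and 0.369 for siRNA 2, beside 0.25 between the controls. Values of the listed RNAs are therefore given for each siRNA. TARBP2 itself was lower on both knockdown arrays, with normalized intensities of 155.5 and 117.6 under siRNA 1 and siRNA 2 against 353.4 and 350.7 in the controls at its first record, and of 130.1 and 112.4 against 235.4 and 213.2 at its second. On background-corrected log2 signal, a scale on which dim probes differ by more, limma gave log2 differences of -2.01 (SE 0.36, unadjusted p = 0.00262) and -1.47 (SE 0.30, unadjusted p = 0.00446), each with an adjusted p of 0.805.

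The authors' deposited table gives 1 log fold change, TARBP2 siRNA over control siRNA, for each accession. At 32624 of its 39745 accessions (82.08%) that value equalled, to within 1e-08, the knockdown mean minus the control mean of a single probe on a variance-stabilized scale, which links 7 of the 8 records to a probe and so to 4 array values. A unit of that scale is close to 1 log2 unit for bright probes and more than 1 for dim ones. A log2 unit of intensity spans 1.02 units of the scale at an intensity of 5000 but 0.525 at an intensity of 100. Values "on the table's scale" below are differences on it, and the bound of 0.2 in size is the value above which the authors set their class to 1.

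The promoters of 5 host genes are shown because 3 of these hosts were lower after knockdown and the other 2 went opposite ways under the siRNAs. Each line holds the 40 bases before a RefSeq start and the 20 bases from it, 5′ to 3′ on the gene's strand, from RefSeq (GRCh38.p14). Capitals mark TATAA before the start and a run of C or T of at least 4 bases that begins with a C at the start.
SNHG12: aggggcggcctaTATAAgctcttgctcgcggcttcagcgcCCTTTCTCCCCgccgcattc
SNHG8: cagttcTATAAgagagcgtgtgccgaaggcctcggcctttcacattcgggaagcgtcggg
SNHG5: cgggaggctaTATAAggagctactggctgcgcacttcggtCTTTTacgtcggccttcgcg
SNHG7: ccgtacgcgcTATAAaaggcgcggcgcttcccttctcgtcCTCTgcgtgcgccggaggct
SNHG1: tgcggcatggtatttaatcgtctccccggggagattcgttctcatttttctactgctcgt
The windows lie at chr1:28581854-28581913 (minus strand) for SNHG12, chr4:118278722-118278781 (plus) for SNHG8, chr6:85678714-85678773 (minus) for SNHG5, chr9:136728165-136728224 (minus) for SNHG7 and chr11:62855866-62855925 (minus) for SNHG1. A start in a run of pyrimidines is the mark of terminal oligopyrimidine genes, to which ribosomal protein genes and many snoRNA hosts are known to belong. Over the 9 promoters of 8 of the 10 RNAs, TATAA or its reverse TTATA stood in the 40 bases before the start in 5, against 5.48% of 35116 promoters in the table. The run at the start, read on the gene's strand, was present in 3 of the 9, against 5.45%. All 3 (SNHG12 with 11 bases, SNHG5 with 5 and SNHG7 with 4) also held the TATAA, and 0.211% of all promoters held both. The SNHG8 promoter had the TATAA but not the run, and SNHG1 had neither. The RefSeq table gives some genes several starts, and the arrays do not show which was used. The SNHG12 start shown lies inside the gene's span of chr1:28578538-28582983, so its TATAA and run belong to an internal start. The other windows shown begin at the outer end of their gene.

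SNHG12 was the lowest of the listed RNAs, SNHG8 and SNHG5 followed it, and the other 4 lay within 0.2 of 0. SNHG12 (NR_024127, chr1:28578538-28582983) carries H/ACA and C/D box snoRNAs, among them SNORA61 and SNORD99. Its normalized intensity was 168.3 under siRNA 1 and 215.9 under siRNA 2, against 311.5 and 312.9 in the controls. Both knockdown arrays were below both controls, which differed from each other by far less than either differed from the knockdown arrays. The authors' deposited table gives SNHG12 -0.526, and 545 of the 19468 genes were lower. In background-corrected log2 signal the knockdown mean was 7.17 ± 0.39 (SD, n = 2) and the control mean 8.14 ± 0.005 (SD, n = 2). With limma the log2 difference was -0.97 (SE 0.32), with an unadjusted p of 0.0309 and an adjusted p of 0.805. The size depended on the scale, and was -0.71 on the authors' normalized values and -0.55 on raw signal scaled to a common median.

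SNHG8 (NR_003584, chr4:118278762-118279823), the host of SNORA24, was the next lowest in the authors' deposited table, though by less than SNHG12 in log2 signal. Its normalized intensity was 3050.9 under siRNA 1 and 2609.3 under siRNA 2, against 4016.7 and 3755.7 in the controls. The knockdown arrays again both lay below both controls, and here siRNA 2 was the lower. The authors' deposited table gives SNHG8 -0.465, with 719 genes below it. The log2 means were 11.45 ± 0.15 (SD, n = 2) and 11.89 ± 0.065 (SD, n = 2), and limma gave a log2 difference of -0.44 (SE 0.21, unadjusted p = 0.0877, adjusted p = 0.805).

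SNHG5 (NR_003038, chr6:85677007-85678733), the host of SNORD50A and SNORD50B, had the third low value, and it came from siRNA 1. Its normalized intensity was 3924.3 under siRNA 1 but 6895.7 under siRNA 2, against 6771.8 and 7404.8 in the controls. The siRNA 2 array lay between the controls, so the groups overlapped. The authors' deposited table gives SNHG5 -0.454, which on the table's scale was the mean of -0.869 for siRNA 1 and -0.039 for siRNA 2. The limma log2 difference was -0.42 (SE 0.30, unadjusted p = 0.224, adjusted p = 0.805).

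SNHG1 and SNHG7 went opposite ways under the siRNAs, and their mean values lay near 0. SNHG1 (NR_003098, chr11:62851978-62855885) is the host of a cluster of C/D box snoRNAs. Its normalized intensity was 6033.3 under siRNA 1 and 2055.1 under siRNA 2, with the controls between them at 3059.3 and 3369.4. On the table's scale it was 0.925 above the mean control under siRNA 1 and -0.644 under siRNA 2, the widest gap between the siRNAs among the 7 RNAs. The authors' deposited table gives SNHG1 0.140, and the limma log2 difference was 0.12 (SE 0.51, adjusted p = 0.946).

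SNHG7 (chr9:136724594-136728184), the host of SNORA17A and SNORA17B, had records that differed in sign. The authors' deposited table gives -0.183 for NR_003672, which could not be linked to a probe, and 0.274 for NR_024542, for a gene value of 0.046. For the second record the normalized intensity was 809.7 under siRNA 1, 309.9 under siRNA 2, and 436.6 and 382.5 in the controls. As for SNHG1, siRNA 1 was above both controls and siRNA 2 below both, by 0.875 and -0.326 on the table's scale. The limma log2 difference was 0.29 (SE 0.57, adjusted p = 0.88).

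SNHG6 (NR_002599), the host of SNORD87, varied little. Its normalized intensity was 4001.8 and 5030.6 under siRNA 1 and siRNA 2, and 4928.0 and 4546.1 in the controls. The siRNA 1 array was the lowest and the siRNA 2 array the highest of the 4, so the groups overlapped. The authors' deposited table gives SNHG6 -0.078, and the limma log2 difference was -0.07 (SE 0.21, adjusted p = 0.923).

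The MALAT1 probe (NR_002819, gene at chr11:65497738-65506516) was not detected on any array. Its normalized intensities of 66.6, 61.6, 69.8 and 53.4 (siRNA 1, siRNA 2 and the controls) overlapped between the groups. The authors' deposited table gives MALAT1 0.024. That value is a difference between signals at background, and the probe was left out of the test.

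**Figure D1:**
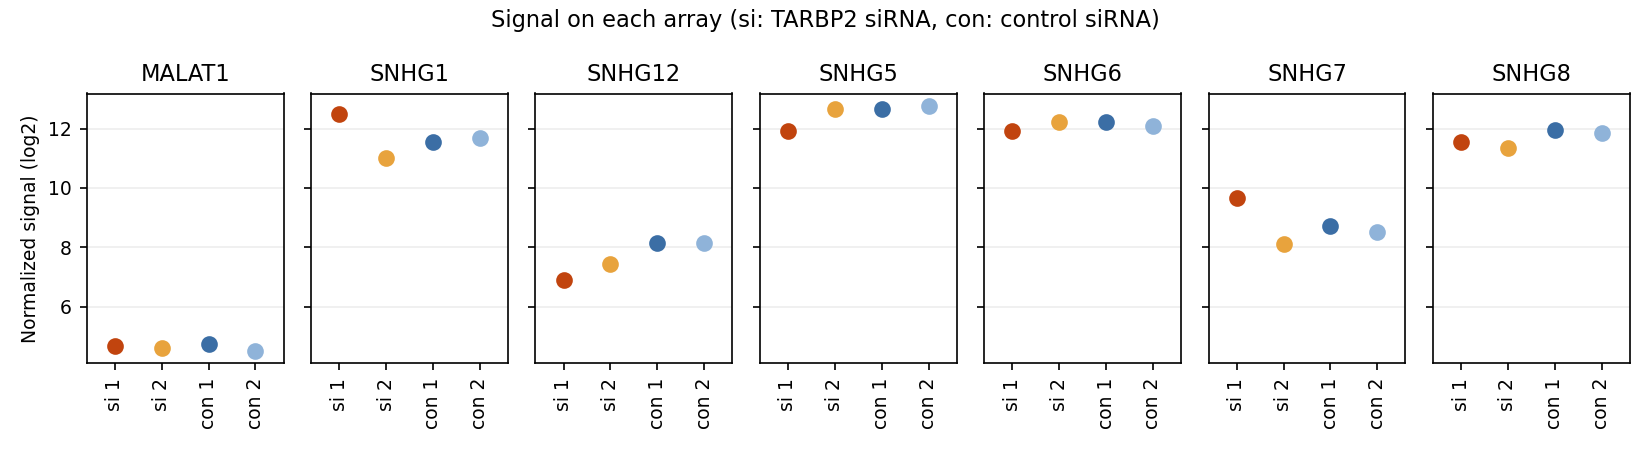
Background-corrected, quantile-normalized signal (log2, vertical axis) of the 7 RNAs with a linked probe on each of the 4 arrays, 1 panel per RNA; each point is 1 array (si: TARBP2 siRNA, con: control siRNA). SNHG12 and SNHG8 have both knockdown points below both controls, SNHG1 and SNHG7 have the controls between the knockdown points, and MALAT1 was not detected on any array.

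Counted together, 3 of the 7 RNAs (SNHG12, SNHG8 and SNHG5) were below -0.2 in the authors' deposited table, where 12.1% of all named genes were, and 0 were above 0.2, where 13.1% were. Their median was -0.078, beside 0.002 over all named genes (quartiles -0.072 and 0.084). That median depended on single arrays: over the linked records it was -0.326 without siRNA 1, -0.246 without siRNA 2, -0.019 without the first control and -0.138 without the second. Over the 21075 detected probes limma called 0 at an adjusted p of 0.05 (0%), with 815 at an unadjusted p under 0.05 and a smallest adjusted p of 0.805, so no listed RNA was called either. For a group of 2 against a group of 2, the smallest p that exact permutation of the labels allows is 0.333 (two-sided).

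The siRNAs had 2 low RNAs in common. Under siRNA 1, 4 of the 7 RNAs were below -0.2 on the table's scale (background 16.7% of 15410 genes with a linked record) and 2 above 0.2 (background 20.2%). Under siRNA 2, 4 were below -0.2 (background 8.93%) and 0 above 0.2 (background 9.79%). SNHG12 (-0.649 and -0.402) and SNHG8 (-0.352 and -0.579) were the 2 below -0.2 under both siRNAs (background 3.53%), and 0 were above 0.2 under both (background 3.54%). These background shares run over genes with a linked record whether detected or not, and both comparisons used the same control arrays. When limma set each siRNA alone against both controls, all 6 detected RNAs passed an adjusted p of 0.05 for siRNA 1, as did 57.1% of the detected probes, and 4 of the 6 passed for siRNA 2, as did 21.3%. Those fits take the spread from the control pair and assume that a lone knockdown array varies as much. SNHG12 and SNHG8 were also the 2 of the 6 detected RNAs with both knockdown arrays below both controls, as were 19.9% of the detected probes, and 0 of the 6 had both above, as did 19.4%.

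**Figure D2:**
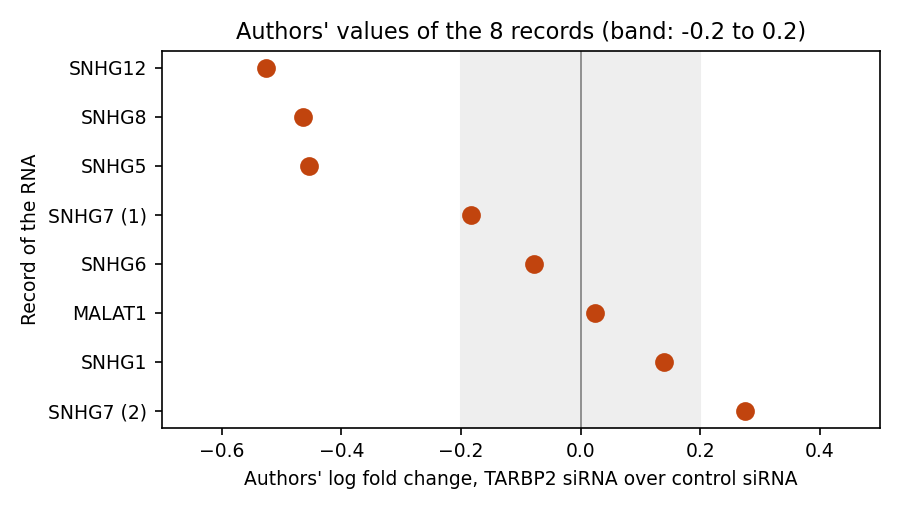
Log fold change in the authors' deposited table, knockdown over control (horizontal axis) for the 8 records of the 7 RNAs; the grey band spans -0.2 to 0.2. SNHG12, SNHG8 and SNHG5 lie below the band, between -0.526 and -0.454, and the second SNHG7 record lies above it at 0.274.

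Small nucleolar RNAs that lie inside the listed genes were on the array as probes of their own, and 5 of them, in GAS5, SNHG1 and SNHG12, were lower after knockdown. By RefSeq coordinates 24 lay inside a listed gene: 8 in GAS5, 7 in SNHG1, 3 in SNHG12, 2 each in SNHG5 and SNHG7, and 1 each in SNHG6 and SNHG8. Of the 24, the authors' deposited table puts 5 below -0.2 and 0 above 0.2, where 12.1% and 13.1% of all named genes lay; 11 were detected on all 4 arrays and 10 on none. A probe inside an intronic snoRNA cannot tell the mature snoRNA from its precursor.

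Inside GAS5, whose own RNA had no row, SNORD80 and SNORD76 were lower. SNORD80 had normalized intensities of 160.9 and 262.8 under siRNA 1 and siRNA 2, against 372.9 and 318.6 in the controls, and -0.557 in the authors' deposited table. SNORD76 had 139.7 and 163.9 against 207.7 and 193.8, and -0.270. Both knockdown arrays lay below both controls for each, and their limma adjusted p was 0.805. Of the other 6 in GAS5, 5 were not detected on any array, and the 6 lay between -0.088 and 0.079 in the authors' deposited table.

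SNORD30 and SNORD31, in introns of SNHG1, were lower under both siRNAs whereas the SNHG1 probe was higher under siRNA 1. SNORD30 had normalized intensities of 280.3 and 368.7 under siRNA 1 and siRNA 2, against 503.2 and 426.2 in the controls (-0.593 and -0.278 on the table's scale). SNORD31 had 227.2 and 273.8 against 381.0 and 366.4 (-0.559 and -0.357). Under siRNA 1 SNHG1 was therefore 0.925 above the mean control where both snoRNAs were below it. SNORD22, in the same gene, was -0.163 and -0.157, and SNORD25 was -0.039 and -0.046. The limma adjusted p of SNORD30 and SNORD31 was 0.805.

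SNORA61 was lower together with its host SNHG12: 1014.5 and 1156.1 under siRNA 1 and siRNA 2, against 1417.7 and 1453.0 in the controls (-0.392 in the authors' deposited table, limma adjusted p = 0.805). SNORD99, also in SNHG12, was -0.152, with both knockdown arrays below both controls. SNORA24 in SNHG8 was 0.064 under siRNA 1 and -0.275 under siRNA 2, where SNHG8 itself was below -0.2 under both. SNORD50B in SNHG5 was -0.027 under siRNA 1, where SNHG5 was -0.869. SNORD87 in SNHG6 was -0.415 under siRNA 1 and 0.022 under siRNA 2, the same signs as SNHG6 at -0.246 and 0.090. The snoRNAs of SNHG7 were detected on at most 1 array.

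**Figure D3:**
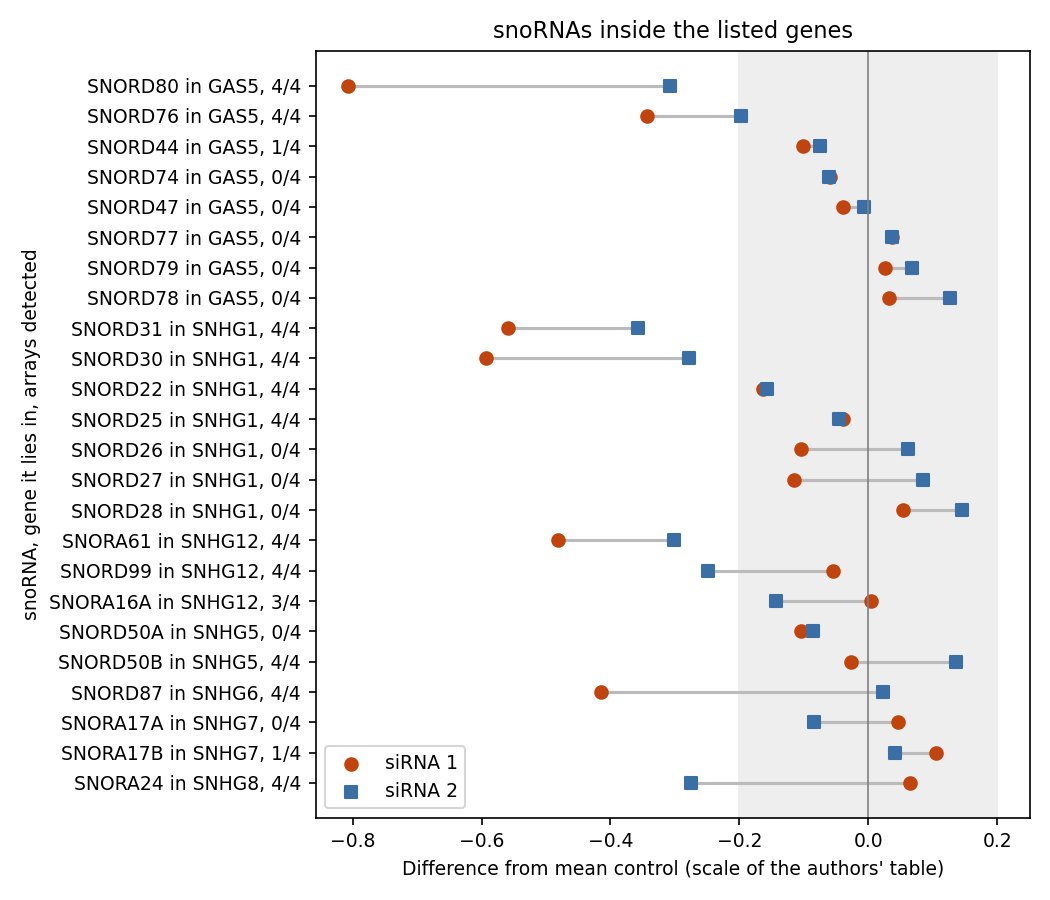
Difference of siRNA 1 (circles) and siRNA 2 (squares) from the mean control, on the scale of the authors' table (horizontal axis), for the 24 snoRNAs inside the listed genes; each label gives the snoRNA, its gene and on how many of the 4 arrays it was detected, and the grey band spans -0.2 to 0.2. SNORD80, SNORD31, SNORD30 and SNORA61 lie left of the band under both siRNAs, and the points of snoRNAs not detected on any array lie inside it.

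The genes named here next to the listed RNAs did not show a shared direction. PRSS12, 215 bases from SNHG8, was 0.760 under siRNA 1 and -0.476 under siRNA 2, where SNHG8 was below -0.2 under both, and the authors' deposited table gives it 0.142. SLC3A2, an amino acid transporter subunit whose gene lies 224 bases from SNHG1, was 0.104 in the authors' deposited table, and MORC2, 491 bases from TUG1, was 0.155 (0.377 under siRNA 1 and -0.067 under siRNA 2). TRNAU1AP, which overlaps SNHG12, was -0.001, and ZBTB37, which overlaps GAS5, was -0.078 in the authors' deposited table. FRMD8, the nearest gene with a value to NEAT1, was -0.208 in the authors' deposited table.

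Of 19 genes on the list of other noncoding snoRNA host genes, 11 had a row, with a median of -0.141. The authors' deposited table puts 3 of these below -0.2 and 1 above 0.2, beside 12.1% and 13.1% of all named genes. Among named genes detected on all 4 arrays the shares were 23.7% and 27%. RNU105C was counted among the 11, though its symbol is that of a small RNA and not of a host. DANCR and SNHG15 were nearly equal under both siRNAs and, on the table's scale, lower than any of the 7 listed RNAs with a row. In background-corrected log2 signal SNHG12 was lower than both, at -0.97. On the authors' normalized values SNHG12 was -0.71, so its rank beside them depends on the scale. DANCR had normalized intensities of 1431.8 and 1396.9 under siRNA 1 and siRNA 2, against 2372.7 and 2426.0 in the controls, which was -0.735 and -0.770 on the table's scale (limma log2 difference -0.73, SE 0.21, unadjusted p = 0.0197, adjusted p = 0.805). SNHG15 had 941.7 and 888.5 against 1478.0 and 1445.4, which was -0.609 and -0.688 (limma log2 difference -0.68, SE 0.23, unadjusted p = 0.034, adjusted p = 0.805). ZFAS1 was -0.274 in the authors' deposited table, with no linked probe.

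EPB41L4A-AS1 was the 1 above 0.2, at 0.309 in the authors' deposited table, with 0.166 under siRNA 1 and 0.452 under siRNA 2. SNHG17 went opposite ways, as SNHG1 and SNHG7 did, with 0.413 under siRNA 1 and -0.560 under siRNA 2. The remaining 6 lay within 0.2 of 0 in the authors' deposited table: RNU105C at -0.183, SNHG9 at -0.150, SNHG11 at -0.141, SNHG10 at -0.108, SNHG3 at 0.126 and SNHG4 at 0.136.

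**Figure D4:**
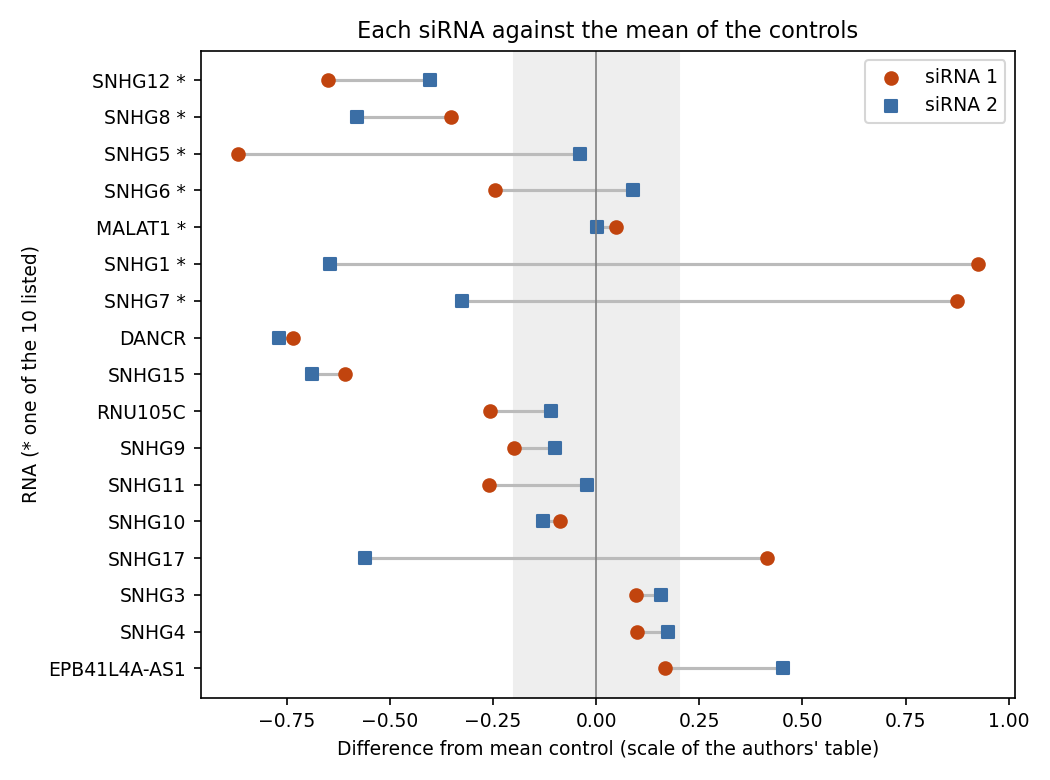
Difference of siRNA 1 (circles) and siRNA 2 (squares) from the mean control, on the scale of the authors' table (horizontal axis), for the 7 listed RNAs with a linked probe (starred) and 10 genes from the list of other noncoding snoRNA hosts, RNU105C included. The grey band spans -0.2 to 0.2. SNHG12, SNHG8, DANCR and SNHG15 lie left of the band under both siRNAs, while SNHG1, SNHG7 and SNHG17 lie on opposite sides of 0.

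Most other long noncoding RNAs, which host no snoRNA, lay close to 0 in the mean of the siRNAs. Of 35 on a fixed list, 18 had a row, with a median of -0.022. The authors' deposited table puts 1 of these above 0.2 and 0 below -0.2, beside 13.1% and 12.1% of all named genes. CYTOR, at 0.262, was that 1, through records at 0.210, with no linked probe, and 0.313. The probe of the latter was detected on 1 array and was left out of the test. Its control values differed by 0.270 on the table's scale. Of the 16 with a linked probe, 6 were not detected on any array, as MALAT1 was not, and their values are differences at background. Under siRNA 1 alone 3 were above 0.2 (background 20.2%) and 2 below -0.2 (background 16.7%). Under siRNA 2 alone 1 was above (background 9.79%) and 1 below (background 8.93%). RPPH1, the RNA of RNase P, and MIR100HG were detected on all 4 arrays and went opposite ways, RPPH1 with 0.631 under siRNA 1 and -0.456 under siRNA 2, and MIR100HG with -0.227 and 0.275. Among the 1722 noncoding records as a whole 3.48% were above 0.2 and 4.88% below -0.2, beside 13.4% and 11.9% of 22771 coding records, so fewer noncoding records passed the bound in either direction. Dim probes are compressed on the table's scale, and the part of that in the difference was not tested.

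Protein-coding genes that host snoRNAs were spread on both sides. Of 47 with a row, the authors' deposited table puts 13 below -0.2 and 5 above 0.2, with a median of -0.029. Over all named genes 12.1% were below -0.2 and 13.1% above 0.2. Among those detected on every array the shares were 23.7% and 27%. The ribosomal protein genes RPL13A (0.681) and RPL4 (0.623) were the highest, RPL13A at 1.259 under siRNA 1 and 0.102 under siRNA 2, and RPL4 at 1.551 and -0.305. CWF19L1 was the lowest at -0.570, with -0.808 and -0.333 under the siRNAs, and C12orf57 was 0.507, with 0.675 and 0.339.

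Among 19 proteins that build or assemble snoRNA particles, the authors' deposited table puts 8 below -0.2 and 4 above 0.2, with a median of -0.028. The shares over all named genes were 12.1% and 13.1%, and over those detected on all 4 arrays 23.7% and 27%. SHQ1, an assembly factor of H/ACA particles, was -0.747 (-1.317 under siRNA 1 and -0.177 under siRNA 2), and NOLC1, a nucleolar protein that binds snoRNA particles, was -0.685 (-0.314 under siRNA 1 and -1.056 under siRNA 2). PIH1D1 and RUVBL1, which belong to a chaperone complex for particle assembly, were 0.759 and 0.688, and PIH1D1 was 1.484 under siRNA 1 and 0.034 under siRNA 2. DKC1, the pseudouridine synthase of H/ACA particles and itself a snoRNA host, was -0.436 and nearly equal under both siRNAs (-0.467 and -0.404).

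Of 18 factors of nonsense-mediated decay, the authors' deposited table puts 8 below -0.2 and 5 above 0.2, with a median of -0.181. The shares over all named genes were 12.1% and 13.1%, and over those detected on every array 23.7% and 27%. PNRC2, which joins UPF1 to the decapping enzyme, was -0.937, DCP2, the decapping enzyme, was -0.662 and UPF3B was -0.524, while CASC3 of the exon junction complex was 0.743. DCP2 was below -0.2 under both siRNAs (-0.846 and -0.478), UPF3B was -0.936 under siRNA 1 and -0.112 under siRNA 2, and CASC3 was 1.528 under siRNA 1 and -0.042 under siRNA 2. Of the 16 factors with a linked record, 3 were below -0.2 under both siRNAs and 0 above 0.2 under both. Over all genes with a linked record, detected or not, those shares were 3.53% and 3.54%.

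The proteins of the bodies that MALAT1 and NEAT1 belong to did not share a direction either. For the counts that follow, 12.1% of all named genes were below -0.2 and 13.1% above 0.2. Of those detected on all 4 arrays, 23.7% and 27% were. Of 24 paraspeckle proteins, the authors' deposited table puts 5 above 0.2 and 4 below -0.2, with a median of 0.036: RBM7, a subunit of the nuclear exosome targeting complex, was -0.503, RBMX was 0.430, NUDT21, a 3′ end processing factor, was -0.358 and EWSR1 was 0.323. RBM7 was -1.183 under siRNA 1 and 0.177 under siRNA 2, RBMX 0.864 and -0.004, and EWSR1 0.408 and 0.106. Of 26 nuclear speckle proteins and RNA 3′ end enzymes, 7 were below -0.2 and 4 above 0.2, with a median of -0.077. POP4, a subunit of the RNase P that cuts the 3′ end of MALAT1, was -0.791 and below -0.2 under both siRNAs (-1.361 and -0.220). ELAC2, which trims the small tRNA-like RNA released from MALAT1, was 0.754 in the authors' deposited table (1.745 under siRNA 1 and -0.237 under siRNA 2). ACIN1 was 0.628 (1.303 and -0.046) and the splicing factor SRSF2 was -0.527 (-0.825 and -0.230).

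**Figure D5:**
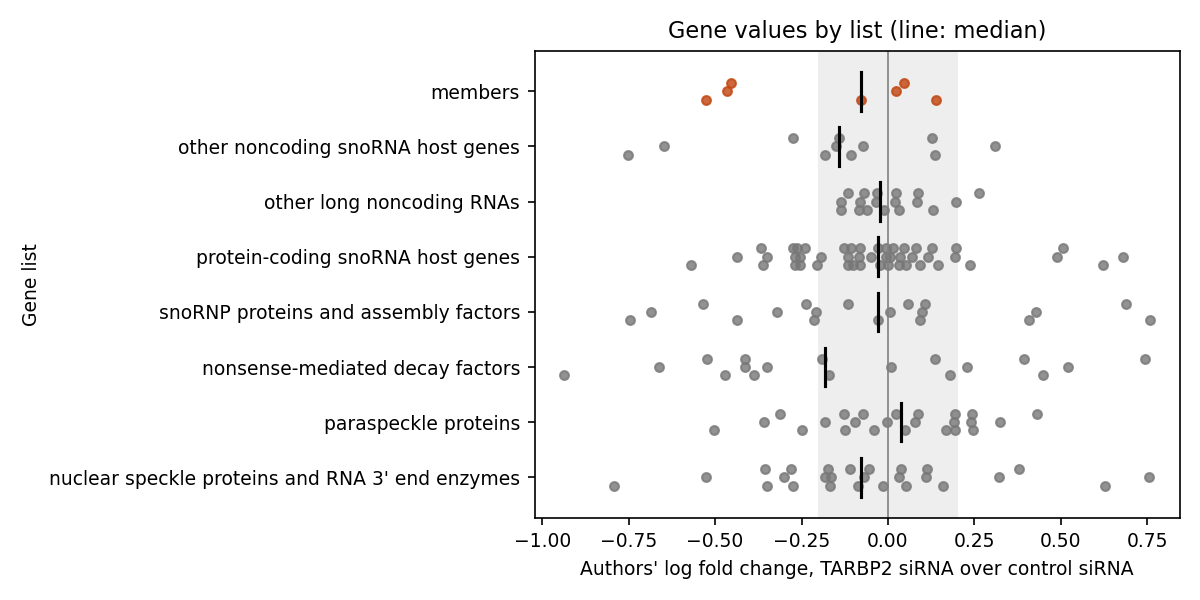
Gene values in the authors' deposited table (horizontal axis) by gene list; each point is a gene, the black line is the median of the list and the grey band spans -0.2 to 0.2. The listed RNAs have a median of -0.078, the other noncoding snoRNA host genes -0.141 and the other long noncoding RNAs -0.022.

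Some genes listed as markers of other cell types were higher on the siRNA 1 array, where SNHG1 and SNHG7 were also higher. Several already had clear signal in the controls, such as KRT19 (2450.1 and 2339.7) and LAPTM5 (1139.9 and 1211.8). Not all were particular to siRNA 1. KRT19 (0.810 under siRNA 1 and 0.885 under siRNA 2) and ACTA2 (0.443 and 0.402) were similar under both, and COL1A1 (0.144 and 0.408) was higher under siRNA 2. Of 6 epithelial markers, 3 were above 0.2 in the authors' deposited table (CLDN7 at 1.082, KRT8 at 1.050 and KRT19 at 0.847), and the intensity summed over the 5 with a linked probe was 11226.4 under siRNA 1, 7661.7 under siRNA 2, and 4772.9 and 4720.7 in the controls. EPCAM (0.007), CDH1 (-0.015) and KRT18 (0.043) were near 0, and CDH1 was not detected on any array. Of 6 leukocyte markers, 3 were above 0.2 (LAPTM5 at 0.748, CD74 at 0.616 and CD14 at 0.588), with sums of 6993.4 under siRNA 1, 2317.8 under siRNA 2, and 2378.4 and 2467.0 in the controls. The defining leukocyte genes PTPRC (0.006) and CD3E (0.060) were not detected on any array. Of 6 fibroblast or endothelial markers, 2 were above 0.2 (ACTA2 at 0.423 and COL1A1 at 0.276), PECAM1 was 0.132, PDGFRB 0.061, VWF -0.016 and CDH5 -0.078, the latter 2 not detected on any array, and the sums were 946.0 and 868.5 in the knockdown arrays and 717.4 and 737.5 in the controls. Of the 6 markers of a mesenchymal line such as MDA-LM2, AXL (-0.518) and CAV1 (-0.268) were below -0.2 and SPARC (0.275) was above 0.2. CD44 (-0.103), VIM (-0.076) and FN1 (0.001) lay between. The CD44 value was the mean of records at 0.199, 0.081 and -0.588. The last had the brightest probe, with 10714.9 and 15669.8 under siRNA 1 and siRNA 2 against 19517.3 and 18954.6 in the controls. CD44, SPARC and FN1, the 3 with a linked probe, summed to 5044.0 under siRNA 1, 6398.0 under siRNA 2, and 7722.0 and 7377.0 in the controls. These values are the authors' deposited table's apart from the sums, the intensities and the values per siRNA. The part of these markers in the values of the listed RNAs was not tested.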

How the data were processed

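The labels give total RNA of 2 TARBP2 siRNA and 2 control siRNA samples. The deposited probe intensity values come raw, with a detection score per array, and, in a second table, quantile-normalized by the authors on a linear scale (shared quantiles, seen in the values). The submitters' processing notes name lumi, with no version; its settings were not stated there. Per the file headers, the authors' deposited table of comparisons lists a log fold change for each accession and a class, 1 or 0. The authors do not name the base, and these deposited values are read as near log2 for bright probes because of the link described next.

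Accessions, without versions, were named through the RefSeq gene table of GRCh38.p14 (56.4%), and a gene's value is the mean over its accessions. Each table value was looked for among the contrasts of single probes (knockdown mean minus control mean) under 1 smooth curve of the authors' normalized intensity. That link was foreseen in words, but the curve was found after the data were seen and by fitting to the same table, after log2 with fixed offsets, single-siRNA contrasts, the turned sign and simpler curves had not matched. Only differences over 0.15 in size entered the fit. Of the 30588 accessions under that size, which did not, 83.07% were also linked to a single probe. With the sign turned 91 accessions matched, and 95 would match by chance from the density of probes. The link is an equality of values, not an annotation of probes.

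Raw signals were background-corrected and normalized with neqc (offset 16, 1 minus the score as the detection value) in limma 3.58.1 (R 4.3.3), and a probe was kept when 1 minus its score was under 0.05 on 2 or more arrays. Groups were compared with lmFit and eBayes (intensity trend, two-sided, Benjamini-Hochberg at 0.05). The test was checked on simulated data. The number of arrays limits the precision, and p-values measure only the spread between these samples.

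All 10 RNAs with every record were named, with TARBP2, up to 4 genes past 0.2 per list by size (all genes of a short list), the nearest genes with a value, and the 10 snoRNAs largest in size. Some genes that this rule takes in are not reported here. Other snoRNAs inside the listed genes, DKC1, RPPH1, MIR100HG and the per-siRNA contrasts were added after their values were seen. The RNAs and lists were chosen with earlier results of these data known. Alternatives covered the joining of accessions, the bound, normalization, the probe filter, a replicate block and each array left out. Shared replicate numbers were not taken as pairs, since same-numbered arrays did not deviate together. That cannot exclude a pairing, because the knockdown arrays also differ by siRNA. Marker sums use linked probes only.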

Additional observations from a re-analysis of the deposited data

How the results depend on the processing

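Values in the authors' deposited table kept their direction under centring and under each way of joining accessions, except SNHG7, the RNA with 2 records, which was 0.274 with the accession farthest from 0 (so that the count of listed RNAs above 0.2 was 1 instead of 0) and -0.183 with the nearest. With a bound of 0.1 that count was 1, and with a bound of 0.5 the count below -0.2 was 1 instead of 3. Over the linked records, leaving out 1 array in turn gave between 0 and 2 RNAs above 0.2 (2 without siRNA 2, 1 without the first control, SNHG7 at 0.355 through its linked record, and 1 without the second, SNHG1 at 0.211), between 3 and 4 below -0.2, and a median between -0.326 and -0.019 (-0.326 without siRNA 1).

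Over the probes, limma called 0 under the authors' normalized values, the common-median scaling (which moved the median of all probes to 0.0887 from -0.0105) and no filter on dim probes. Common-median scaling changed log2 differences by over 1.5 times for SNHG12 (-0.55, beside -0.97), SNHG7 (0.44, beside 0.29) and SNHG6 (-0.04, beside -0.07). The replicate block also gave 0 calls, with a smallest adjusted p of 0.339, and same-numbered arrays had a correlation of deviations of -0.0418; the block changed no call of a listed RNA. Leaving out 1 array gave between 0 and 12035 calls: 12035 (57.1%) with siRNA 2 left out, 4479 (21.3%) with siRNA 1 left out and 0 with a control left out. The fits without 1 siRNA take the spread from the control pair alone and assume the lone knockdown array to vary likewise, so their p-values compare 1 array with 2.

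In those fits SNHG1 reversed, at -0.61 without siRNA 1 (limma adjusted p = 1.5e-06) and 0.86 without siRNA 2 (1.82e-10). SNHG7 reversed, at -0.48 (0.00765) and 1.06 (2.77e-09), and SNHG6 at 0.08 (0.562) and -0.22 (0.0284). SNHG12 was -0.70 (limma adjusted p = 0.000575) and -1.25 (2.07e-08), SNHG8 -0.54 (7.41e-06) and -0.33 (0.00121), and SNHG5 -0.04 (0.826) and -0.80 (5.74e-10), so the low value of SNHG5 rests on siRNA 1. The value of SNHG7 on the table's scale was 0.875 without siRNA 2. Of all values recomputed, 129 kept their direction and side of the threshold or moved by less than the spread between arrays. Another 10 moved further, 8 newly passed the threshold and 3 reversed. The cause was not tested. With 2 arrays per group, leaving 1 out cannot move a single record on the table's scale past that spread, so such rows do not show stability. SNHG1, at 0.140, was counted among the 129 at -0.644 without siRNA 1 and at 0.925 without siRNA 2. Alternatives for single RNAs in limma, and arrays left out on the table's scale, were chosen after seeing the data.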

Other observations

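Across the whole table, 300 snoRNA genes had a row, and the authors' deposited table puts 22 (7.33%) below -0.2 and 7 (2.33%) above 0.2, with a median of -0.022, beside 12.1% and 13.1% of all named genes. Of the 297 with a linked probe, 170 were not detected on any array and 76 were detected on all 4. Among those 76, 27.6% were below -0.2 and 5.26% above 0.2, with a median of -0.122, beside 23.7% and 27% of the 7735 named genes detected on all 4 arrays, with a median of 0.014. Detection on all 4 arrays leaves out RNAs that fell to background, and the share below -0.2 is under that of all genes without this filter and over it with the filter. Of the 76, 37 had both knockdown arrays below both controls and 3 had both above. Among the 21075 probes detected on at least 2 arrays those shares were 19.9% and 19.4%. The 22 low ones were picked by the mean of the siRNAs, so their counts per siRNA follow in part from that choice. Of these 22, 21 were below -0.2 under siRNA 1 and 10 under siRNA 2, and in 19 both knockdown arrays lay below both controls. By size the 10 largest values were those of SNORD36C (-0.606), SNORD80 (-0.557), SNORD31 (-0.458), SNORA10 (0.451), SNORD65 (-0.442), SNORD30 (-0.435), SNORA61 (-0.392), SNORD36A (-0.353), SNORD52 (-0.347) and SNORD6 (-0.335) in the authors' deposited table.

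SNORD36C and SNORD36A lie in RPL7A, SNORD65 in SNHG29, SNORD52 in SNHG32, SNORD6 in TAF1D and SNORA10 in RPS2. SNORD36C was low under both siRNAs (-0.978 and -0.234 on the table's scale), as was SNORD52 (-0.471 and -0.224). SNORA10 was 1.135 under siRNA 1 and -0.233 under siRNA 2, the sign pattern of SNHG1, SNHG7 and SNHG17.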
